A study of Mus musculus with 8 samples.

Results

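Gzmd, Gzme and Mcpt8 are 3 of the 20976 genes measured in cultured mouse muscle stem cells, and all belong to the granzyme and mast cell protease cluster of chromosome 14. They were chosen from the comparison described here: Gzmd had the lowest log2 change of all genes tested, and Gzme and Mcpt8 were taken with it as members of the same cluster. Their differences between the groups are therefore given as a description, with no test. In 4 libraries, called Cre, muscle stem cells isolated by FACS from Chd4 LoxP/LoxP mice received an adenovirus with Cre recombinase, which deletes exons 12 to 21 of Chd4. In the 4 control libraries, called GFP, cells of the same genotype received AdenoGFP. Each condition came from 4 mice, and before infection all cells were expanded briefly in DMEM GlutaMAX with 20% FCS, penicillin, streptomycin and 5 ng/ml bFGF. Both groups were exposed to adenovirus, and Cre was never given to cells without loxP sites in Chd4, so loss of Chd4 and presence of Cre cannot be told apart.

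The members encode serine proteases that are stored in the secretory granules of blood cells. Granzymes are delivered by cytotoxic T cells and natural killer cells into target cells, where they cleave intracellular proteins, and granzymes D and E belong to a group of closely related copies found in rodents. Mcpt8 encodes a mast cell protease family member that in mice is used as a marker of basophils. Chd4, the gene deleted here, encodes an ATPase that slides nucleosomes as part of NuRD, a complex that represses genes in many cell types.

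Chd4 served as the check of the labels. Its scaled reads (the deposited values, whose steps and nearly equal library totals mark them as scaled and rounded reads, also called normalised reads) were 3686, 5480, 5010 and 5134 in Cre libraries 1 to 4, against 17886, 15904, 16634 and 20121 in GFP libraries 1 to 4. Library totals were 28.4 to 28.9 M scaled reads in Cre and 27.9 to 28.5 M in GFP. The original depth estimated from the scaling was 26.3 to 30.4 M reads in Cre and 23.3 to 38.0 M in GFP. The cells carried the markers of their label: Pax7, the defining transcription factor of muscle stem cells, averaged 5432 ± 870 scaled reads in Cre and 5966 ± 651 in GFP (mean ± SD of 4 libraries each). The 10 muscle stem cell markers summed to 140674 to 156560 scaled reads in Cre and 134330 to 142034 in GFP. Of 12910 genes that passed a filter of 1 CPM (reads relative to each M of the library total) in at least 4 libraries, 140 (1.08%) had an adjusted p below 0.05 in limma without pairing, 108 of them higher and 32 lower in Cre. Leaving out any single library lowered these to 10 to 51 higher and 1 to 7 lower. Libraries with the same number deviated together, and with the number as a block limma called 5665 genes (43.9%), 2861 higher and 2804 lower. These 2 fits are called unpaired and paired below.

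All members lie on the minus strand of chromosome 14, within 50.4 kb. In the coordinates of the deposited table (GRCm38), Mcpt8 (ENSMUSG00000022157) occupies chr14:56082166-56085197, Gzme (ENSMUSG00000022156) chr14:56117626-56120625 and Gzmd (ENSMUSG00000059256) chr14:56129556-56132608. A gap of 32.4 kb separates Mcpt8 from Gzme, and 8.93 kb separates Gzme from Gzmd. Ctsg, the gene of the neutrophil protease cathepsin G, is annotated between Mcpt8 and Gzme. The whole cluster spans chr14:55941453-56262260 and holds 15 listed protease genes that are annotated in GENCODE M21. Of these, 9 had a row in the table and 6 were not analysed here, 3 of which (Gzmg, Gzmn and Gzmf) lie between Gzmd and Gzmc. Other genes inside the span, such as Gm5801 and Gm4819, are not in this count.

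The promoters of the members are shown because Gzmd and Gzme are near copies of each other and Mcpt8 is not. Each line gives 250 bases upstream of the start site in RefSeq on GRCm38.p6, minus strand, 5′ to 3′. The windows are chr14:56132594-56132843 for Gzmd, chr14:56120626-56120875 for Gzme and chr14:56085198-56085447 for Mcpt8. Capitals in Gzmd and Gzme mark the bases that differ between this pair, and capitals in Mcpt8 mark matches to TGTGGT or CANNTG on either strand.
Gzmd: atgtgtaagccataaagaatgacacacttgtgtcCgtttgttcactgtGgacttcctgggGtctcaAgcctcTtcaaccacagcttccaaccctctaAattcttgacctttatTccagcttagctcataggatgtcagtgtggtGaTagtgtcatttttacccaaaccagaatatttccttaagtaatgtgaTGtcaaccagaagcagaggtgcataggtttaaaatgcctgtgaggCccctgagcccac
Gzme: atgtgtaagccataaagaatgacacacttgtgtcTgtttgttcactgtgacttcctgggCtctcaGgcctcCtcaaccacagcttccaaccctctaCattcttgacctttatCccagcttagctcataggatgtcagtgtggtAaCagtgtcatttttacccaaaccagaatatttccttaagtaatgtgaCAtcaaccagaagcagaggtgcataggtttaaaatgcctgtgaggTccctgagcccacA
Mcpt8: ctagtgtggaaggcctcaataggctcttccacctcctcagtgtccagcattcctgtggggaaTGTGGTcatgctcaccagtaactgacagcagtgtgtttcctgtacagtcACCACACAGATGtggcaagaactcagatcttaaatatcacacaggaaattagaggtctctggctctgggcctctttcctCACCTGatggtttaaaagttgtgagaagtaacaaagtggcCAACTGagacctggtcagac

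The Gzmd and Gzme promoters were identical in 238 of 251 aligned columns (94.8%), with 11 substitutions and 2 gap columns, 1 of them at the end of the window. The Mcpt8 promoter had 48.1% identity with Gzmd and 47.1% with Gzme. That is close to the 49.3% between the promoters of Gzmd and Cma1, a more distant gene of the cluster. The coding sequences had the same order, with 93.3% identity between Gzmd and Gzme (708 of 759 columns), 59.8% between Gzmd and Mcpt8 and 59.6% between Gzme and Mcpt8. Among genes of the cluster not analysed here, Gzmg had 86.9% coding identity with Gzmd and 89.6% with Gzme.

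Both strands of the promoters were searched for short motifs, and a match is a description of letters, not a site. TGTGGT, the core that Runx factors bind, occurred 2 times in each of the 3 promoters, at 174 and 112 bases before the start in Gzmd, 175 and 113 in Gzme, and 188 and 139 in Mcpt8. It was found at least once in 14.05% of the 32851 promoters in the table and at least 2 times in 1.27%. Of the 13 promoters of the cluster that could be searched, 10 held it. Those of Gzmb, Gzmc, Gzmf and Gzmg also held it 2 times each, so 2 matches are not particular to the members. CANNTG, the E-box of basic helix-loop-helix factors such as MyoD, occurred 1 time in Gzmd, 1 time in Gzme and 3 times in Mcpt8. It is common, with a match in 66.2% of all promoters, and in Mcpt8 1 of its matches adjoins a TGTGGT match. GATAA, the core of GATA sites, occurred 1 time in Gzme, 142 bases before the start, and is held by 22.6% of promoters. That match includes a base at which Gzme and Gzmd differ. The windows of the members held no match to TATAAA, found in 12.4% of promoters. They held none to CAGCTG, a special case of the E-box found in 13.0%. The same was true of TGANTCA, the AP-1 site, found in 6.75%, and of the STAT palindrome, found in 7.02%.

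The transcripts of Gzmd and Gzme share stretches that short reads cannot place on 1 gene. Of all windows of 50 bases in its transcript, 21.9% for Gzmd and 20.6% for Gzme occur exactly in another annotated gene. Windows shared between this pair were 12.0% for Gzmd and 12.7% for Gzme, and the others occur in Gzmg, Gzmf, Gzmc or Gzmn. At 75 bases these shares were 5.73% and 4.75%, and for Mcpt8 the share was 0 at both lengths. At 100 bases they were 0.231% for Gzmd and 0 for Gzme and Mcpt8. The read length is not given in the sources used here. Values of Gzmd and Gzme are uncertain to the extent that the counting split or dropped such reads, and their sum is given beside them. The sum does not settle reads that were dropped or that are shared with other genes of the cluster. Mcpt8 overlaps the microRNA gene Mir6949 on the same strand in GENCODE M21.

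Gzmd, the granzyme with the lowest log2 change of all genes tested, retained less of its GFP level in Cre than the other members. Its scaled reads were 44, 69, 99 and 63 in Cre libraries 1 to 4, against 290, 280, 501 and 330 in GFP libraries 1 to 4. The groups did not overlap, and the highest Cre library lay well below the lowest GFP library. The means were 68.8 ± 22.8 in Cre and 350.25 ± 103 in GFP (± SD over 4 libraries), so that Cre retained 19.6% of the GFP mean. The log2 change was -2.35 with an SE of 0.28 in the unpaired fit and 0.12 in the paired fit. Estimated unscaled reads were 45.0 to 98.1 per Cre library and 233 to 447 per GFP library, so counting error is a larger part of the Cre values than of the GFP values. In bulk RNA, fewer cells that express a gene and less RNA per cell cannot be told apart, for Gzmd or for the genes that follow.

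Gzme, the neighbouring granzyme, retained 40.8% of its GFP mean. Scaled reads were 406, 489, 631 and 384 in Cre libraries 1 to 4, against 1218, 1072, 1433 and 959 in GFP libraries 1 to 4. Here too the groups did not overlap. The means were 478 ± 112 in Cre and 1170.5 ± 205 in GFP (± SD over 4 libraries), a log2 change of -1.30 with an SE of 0.19 unpaired and 0.08 paired. The sum of Gzmd and Gzme, which does not depend on how shared reads were split between this pair, averaged 546 ± 133 in Cre and 1521 ± 290.5 in GFP.

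Mcpt8, the mast cell protease, was the most abundant member and differed least. Scaled reads were 1685, 1694, 2121 and 1247 in Cre libraries 1 to 4, against 2986, 2372, 2863 and 1852 in GFP libraries 1 to 4. The groups overlapped, since Cre library 3 lay above GFP library 4. The means were 1687 ± 357 in Cre and 2518 ± 517 in GFP (± SD over 4 libraries), so that 67.0% remained, and the log2 change was -0.58 with an SE of 0.20 unpaired and 0.06 paired.

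**Figure D1:**
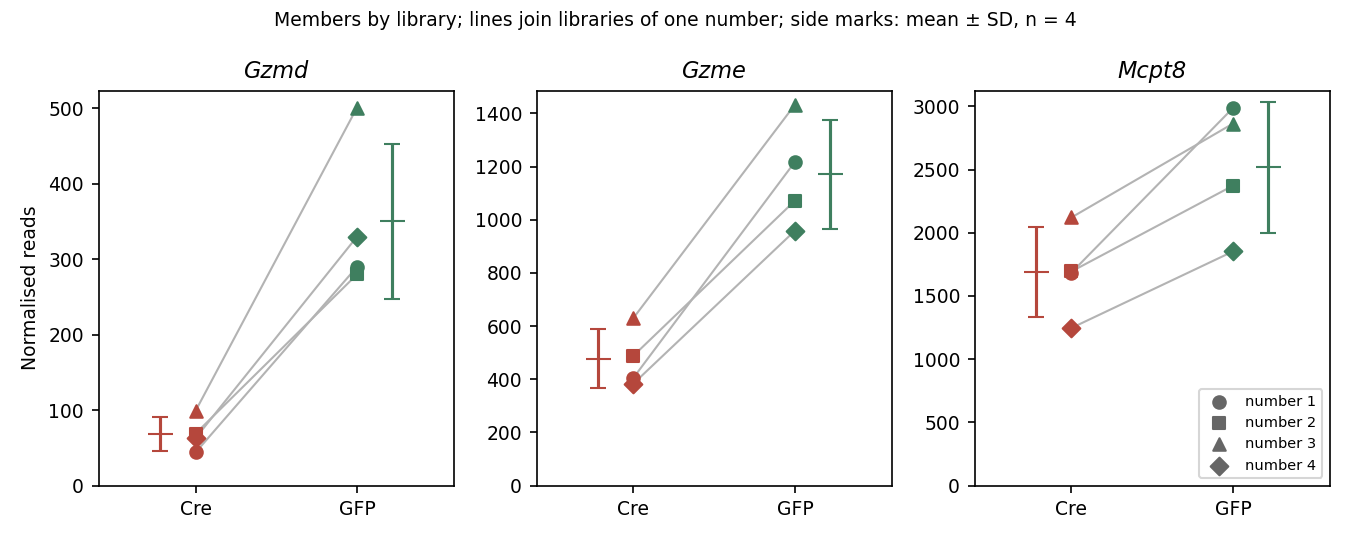
Scaled reads of Gzmd, Gzme and Mcpt8 in each library, Cre left of GFP; lines join libraries with the same number and side marks give mean ± SD (n = 4 each). Each line is higher at its GFP end, the groups are apart for Gzmd and Gzme, and for Mcpt8 Cre library 3 at 2121 lies above GFP library 4 at 1852.

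In this count of members, 2 of 3 were lower in Cre without overlap between the groups, beside 6.17% of all genes tested. By the unpaired adjusted p, 0.248% of genes tested were called lower and 0.837% higher, and by the paired one 21.7% were called lower and 22.2% higher. These shares are given for scale only, since the members were taken from the same contrast. Gzmd ranked 1st from the bottom by log2 change, Gzme 9th and Mcpt8 485th of the 12910 genes. Around the choice of Gzmd, the next values among genes with a mean of at least 5 CPM, an unpaired call and no overlap were -1.88 for the deleted Chd4 and -1.49 for Fhdc1.

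**Figure D2:**
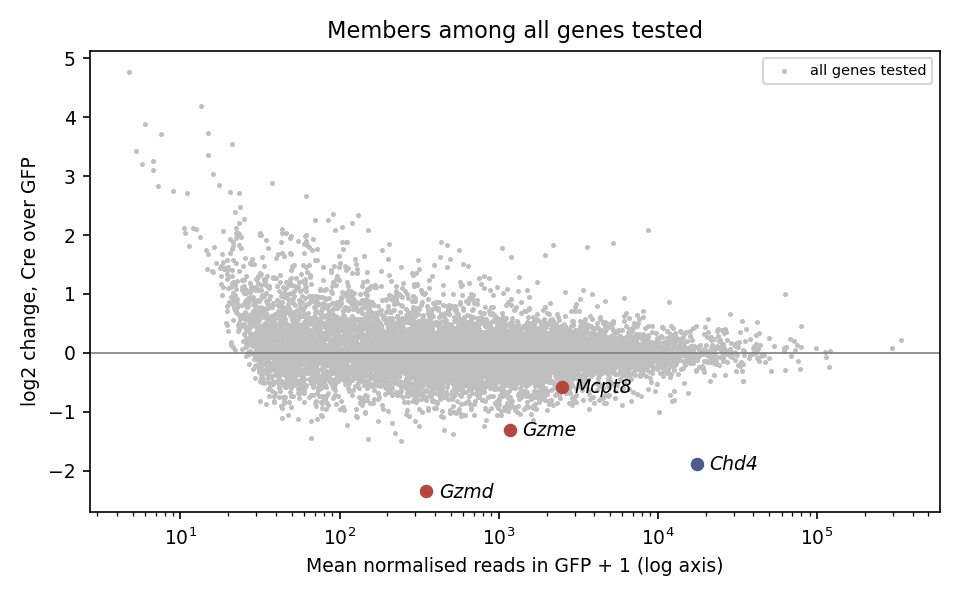
Log2 change, Cre over GFP, against the GFP mean plus 1 on a log axis for all genes tested, with Gzmd, Gzme, Mcpt8 and Chd4 named. Gzmd sits lowest at -2.35, Gzme at -1.30 and Mcpt8 at -0.58, with increasing GFP level in that order.

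The 3 members formed a graded series within every pair of same-numbered libraries. As a share of the GFP library with the same number, Gzmd stood at 15.2, 24.6, 19.8 and 19.1% in Cre libraries 1 to 4. For Gzme these shares were 33.3, 45.6, 44.0 and 40.0%. For Mcpt8 they were 56.4, 71.4, 74.1 and 67.3%. All 3 were lower in Cre in 4 of 4 pairs, the order Gzmd, Gzme, Mcpt8 held in each pair, and pair 1 had the lowest share for each member. Gzmd was chosen for its fall in these same values, so the order and its repeat in each pair are description only. The order of these 3 genes along the chromosome is the same as the order of these shares, Gzmd lying farthest from Mcpt8. Beyond Gzmd, Gzmc and Gzmb had log2 changes of -0.58 and 0.86 with no filter, both at few reads. An effect of position was not tested.

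**Figure D3:**
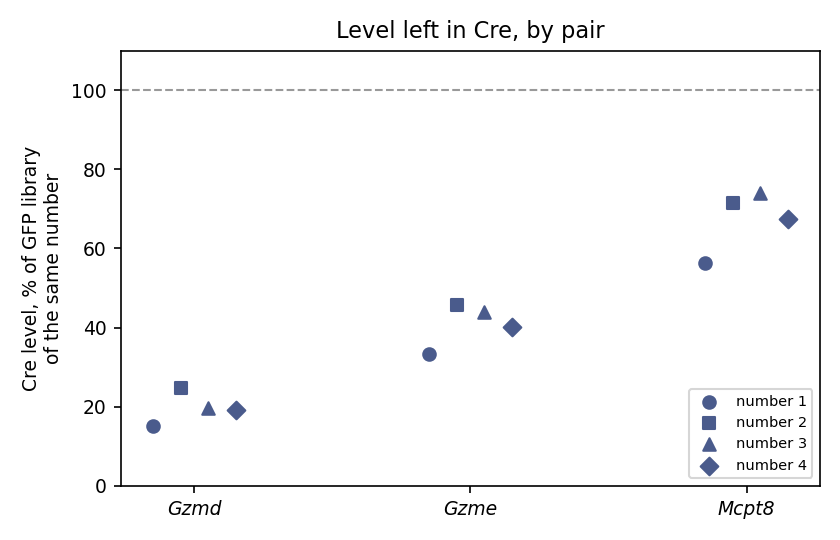
Cre value as a percent of the GFP value with the same number, for each member and pair. Within each pair Gzmd is lowest (15.2 to 24.6%), Gzme intermediate (33.3 to 45.6%) and Mcpt8 highest (56.4 to 74.1%).

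The ratios between members follow from these shares. There were 14.3 ± 2.48 Gzmd reads per 100 Gzme reads in Cre and 29.8 ± 5.70 in GFP (± SD over 4 libraries). The 4 Cre ratios were 10.8 to 16.4, all below the 4 GFP ratios of 23.8 to 35.0. Per 100 Mcpt8 reads there were 28.4 ± 2.96 Gzme reads in Cre and 47.0 ± 4.97 in GFP. Gzmd numbered 4.10 ± 1.07 per 100 Mcpt8 reads in Cre and 14.2 ± 4.08 in GFP. All 3 members together summed to 2233 ± 477 scaled reads in Cre and 4039 ± 750 in GFP, most of it Mcpt8.

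Set per kilobase of exon, the members covered a wide range of levels. Mcpt8 had 1690.1 scaled reads per kb in Cre and 2523 in GFP, placing it at percentile 94.6 of tested genes in Cre and 96.9 in GFP. Gzme had 521 per kb in Cre and 1278 in GFP, at percentile 77.3 in Cre and 92.4 in GFP. Gzmd had 71.3 per kb in Cre and 363 in GFP, at percentile 27.2 in Cre and 68.1 in GFP. For scale, Pax7 had 927 per kb in Cre and 1018 in GFP. The level of Mcpt8 per kb was thus above that of Pax7 in both groups, and Gzme lay above Pax7 in GFP but below it in Cre.

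Within a group the members also varied between libraries. The coefficient of variation was 33.2% in Cre and 29.3% in GFP for Gzmd. It was 23.4% in Cre and 17.5% in GFP for Gzme, and 21.2% in Cre and 20.5% in GFP for Mcpt8. Library 3 had the highest Gzmd and Gzme values in both groups, and library 4 had the lowest Gzme and Mcpt8 values in both. Pearson's r of log2 values over the 8 libraries was 0.975 between Gzmd and Gzme, 0.893 between Gzme and Mcpt8 and 0.774 between Gzmd and Mcpt8. After the group means were removed, r was 0.787, 0.868 and 0.383 for these pairs. These libraries share the group difference and the replicate number, so the values describe them and carry no test.

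The genes whose log2 values were most like the members over the 8 libraries were ranked among 10609 genes with a mean of at least 5 CPM. For Gzmd they were Blvra (r = 0.993), Toe1 (0.988), Letm1 (0.984), Lclat1 (0.981) and Ints12 (0.981). For Gzme they were Lclat1 (0.993), Blvra (0.987), Kcnk2 (0.984), Gzmd (0.975) and Smyd4 (0.973). Gzmd thus stood 4th for Gzme, and Gzme stood 11th for Gzmd, by values that carry the group difference used to choose the members. After the group means were removed, Gzmd stood 291st for Gzme and Gzme 319th for Gzmd. For Mcpt8 they were Zfp772 (0.972), Cast (0.963), Ormdl1 (0.961), Rexo2 (0.960) and Pih1d1 (0.959), with no other gene of the cluster. For deviations from the group means the leading genes were Uap1 for Gzmd (0.976), Sept8 for Gzme (0.984) and Mcat for Mcpt8 (0.998).

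Of the other cluster genes in the table, 0 of 6 passed the filter, and all but Mcpt1 had at most 17 scaled reads in any library. Gzmc, the granzyme on the far side of Gzmd, had 4, 8, 9 and 3 scaled reads in Cre libraries 1 to 4, against 6, 8, 17 and 7 in GFP libraries 1 to 4. Gzmb, the best known cytotoxic granzyme, had 10, 1, 1 and 1 in Cre, against 3, 0, 0 and 1 in GFP. Among the chymase-like genes, Cma1 had 12, 0, 4 and 3 in Cre, against 10, 4, 1 and 6 in GFP. Their groups overlapped, and at such levels a difference was not detectable.

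Mcpt1, a mucosal mast cell chymase, had the highest values of these 6 genes, with 221, 65, 15 and 16 scaled reads in Cre, against 114, 25, 9 and 13 in GFP. Mcpt1 was thus higher in Cre in 4 of 4 pairs, where the members were lower, and library 1 was the highest in both groups. With no filter its log2 change was 0.81 with an adjusted p of 0.809 in the unpaired fit of limma, and 0.0245 in the paired fit, a setting added after the data were seen. Mcpt2 had 8, 0, 0 and 0 in Cre, against 3, 0, 0 and 0 in GFP, and Mcpt4 had 12, 3, 0 and 0 in Cre, against 1, 1, 1 and 0 in GFP.

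**Figure D4:**
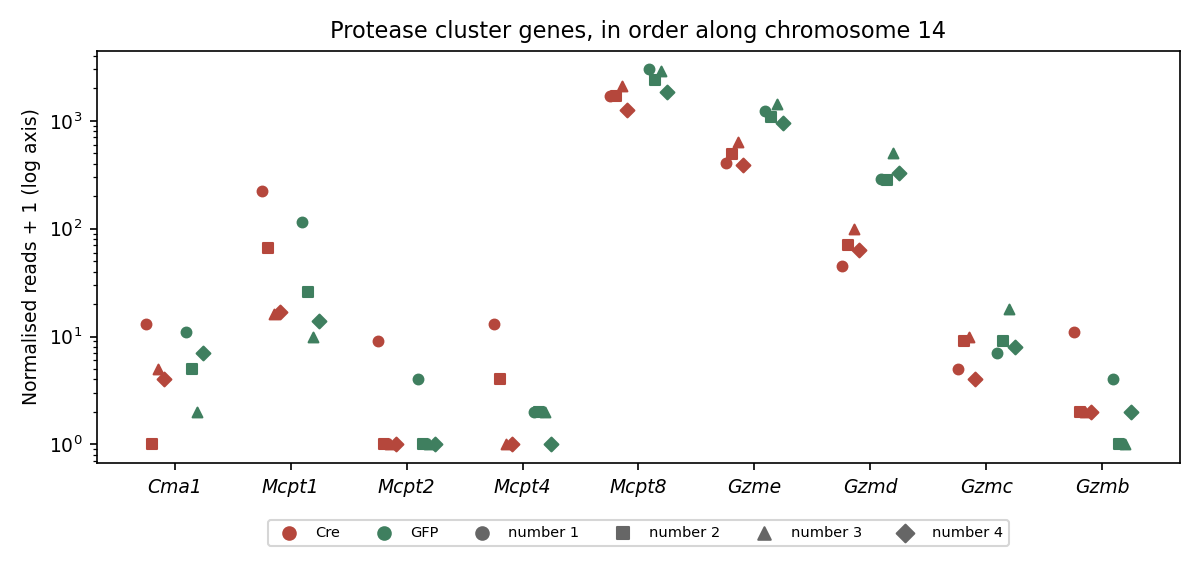
Scaled reads plus 1, on a log axis, of the 9 cluster genes in the table in each library, Cre left of GFP, in chromosomal order; symbols mark the library number. Gzmd, Gzme and Mcpt8 stand above the other 6, except in Cre library 1, where Mcpt1 at 221 lies above Gzmd at 44.

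Gzmm, a granzyme gene on chromosome 10, was the 1 gene with a row among 3 listed granzymes on other chromosomes. It had 35, 63, 77 and 40 scaled reads in Cre, against 50, 61, 53 and 54 in GFP. The groups overlapped, and its log2 change of -0.09 did not pass (limma adjusted p = 0.916 unpaired, 0.753 paired).

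Genes around the cluster had log2 changes on both sides of 0. Within 1 Mb of it, 39 genes were tested, 0 were called in the unpaired fit and 0 with limma-voom. Before adjustment p was below 0.05 for 5 higher and 4 lower genes. The paired fit called 15 (38.5%), 6 higher and 9 lower, beside 43.9% of all genes tested. The median log2 change was 0.02, beside -0.00081 over all genes, with a range of -0.61 to 1.51. By distance from Gzmd, the nearest tested genes were Sdr39u1 at 229 kb (log2 change 0.05, adjusted p = 0.859) and Khnyn at 233 kb (-0.16, 0.766; 0.0456 paired) on 1 side. On the other they were Cenpj at 394 kb (0.01) and Parp4 at 443 kb (-0.02).

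The neighbours with the largest differences moved both ways. Ripk3, a kinase of necroptotic cell death 341 kb from Gzmd, had 2033, 1509, 1082 and 1909 scaled reads in Cre, against 697, 630, 284 and 776 in GFP. Its groups did not overlap and its log2 change was 1.51 ± 0.34 (SE), with a limma adjusted p of 0.0873 unpaired and 3.9e-06 paired. In the paired fit Nfatc4, a calcium-regulated transcription factor at 296 kb, rose by 1.12, and Carmil3 at 621 kb rose by 1.02. Their unpaired adjusted p were 0.144 for Nfatc4 and 0.118 for Carmil3. Gmpr2, a GMP reductase at 451 kb, had a log2 change of -0.61 and was called lower in the paired fit, with an unpaired adjusted p of 0.0976. Nfatc4, Carmil3 and Gmpr2 were named after their values were seen.

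**Figure D5:**
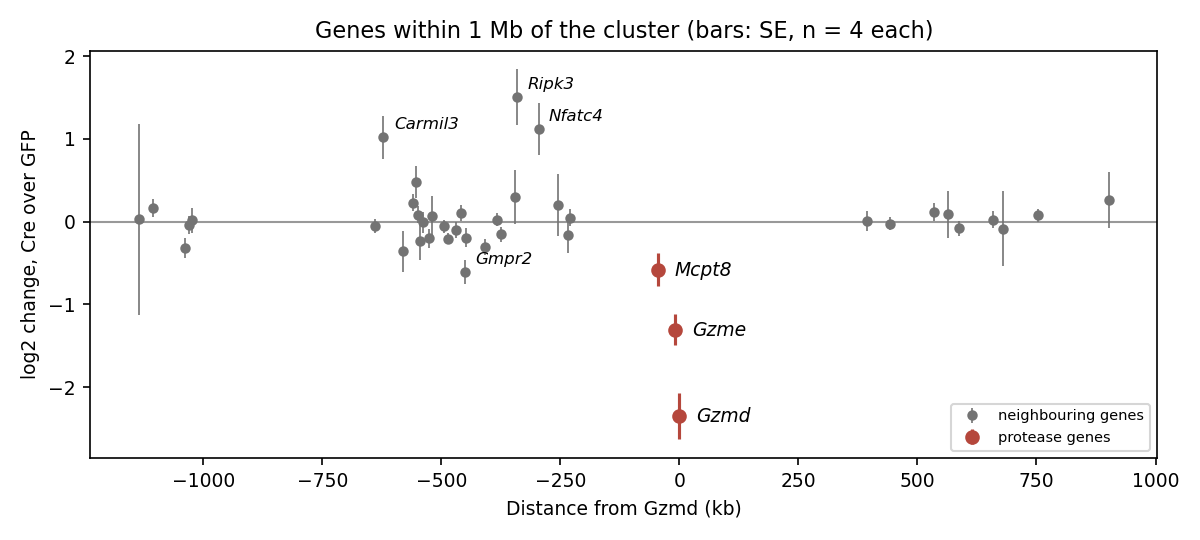
Log2 change, Cre over GFP, against distance from Gzmd in kb, for tested genes within 1 Mb of the cluster and the members; bars are SE (n = 4 each). The neighbours lie between -0.61 and 1.51 on both sides of zero, and Gzmd and Gzme at -2.35 and -1.30 lie below all of them.

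Genes of granule storage, activation and release were looked at because the members need them in blood cells. Of 14 listed, 11 were tested and 0 were called in the unpaired fit or by limma-voom, and p before adjustment was below 0.05 for 4 higher genes and 1 lower gene. The paired fit called 8 of 11 (72.7%), 6 higher and 2 lower, beside 43.9% of all genes tested, and the median log2 change was 0.25. Stxbp2, which serves granule fusion, had 1627, 1075, 1155 and 1161 scaled reads in Cre, against 1018, 522, 569 and 625 in GFP (log2 change 0.91, limma adjusted p = 0.106 unpaired, 9.7e-06 paired). Igf2r, a receptor that carries mannose-6-phosphate enzymes to lysosomes, rose in the paired fit by 0.44 (limma adjusted p = 0.119 unpaired). Gnptab, which makes that sugar tag, fell in it by 0.28 (0.0922 unpaired). The 3 genes under the filter, named after their values were seen, were Rab27a, the granule proteoglycan Srgn and perforin, Prf1. Srgn had 27, 18, 7 and 22 scaled reads in Cre, against 18, 6, 0 and 15 in GFP. Prf1, whose product forms the pores through which granzymes enter cells, had 4, 3, 11 and 4 in Cre, against 1, 4, 2 and 4 in GFP.

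Several serpins inhibit granule proteases. Of 7 listed, 5 were tested, and 0 were called in the unpaired fit, at an unadjusted p below 0.05 or by limma-voom. The paired fit called 2 of 5 (40.0%), 1 higher and 1 lower, beside 43.9% of all genes tested. Serpinb9, an inhibitor of granzyme B, had 122, 127, 94 and 50 scaled reads in Cre, against 268, 205, 166 and 94 in GFP. Its groups overlapped, but it was lower in 4 of 4 pairs, with a log2 change of -0.88 (limma adjusted p = 0.311 unpaired, 0.000217 paired). Serpinb1a rose in the paired fit by 0.41 (limma adjusted p = 0.751 unpaired, 0.000473 paired), and its groups overlapped. Serpinb6a, the most abundant, had a log2 change of 0.05 with no call.

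Transcription factors known to act on granule protease genes in lymphocytes, mast cells or basophils were mostly expressed. Of 20 listed, 17 were tested, and 0 were called in the unpaired fit or by limma-voom, and p before adjustment was below 0.05 for 3 higher genes and 0 lower genes. The paired fit called 10 of 17 (58.8%), 9 higher and 1 lower, beside the same 43.9% of all genes tested, and the median log2 change was 0.18. Nfatc2, which acts downstream of calcium signals, had 50, 46, 57 and 45 scaled reads in Cre, against 12, 26, 36 and 25 in GFP (log2 change 1.06, limma adjusted p = 0.181 unpaired, 0.00584 paired). Mitf, a regulator of mast cells, rose in the paired fit by 0.45 (limma adjusted p = 0.217 unpaired), and Stat3 rose by 0.33 (0.197 unpaired). Runx2, the only gene of the list called lower in the paired fit, had a log2 change of -0.20 (limma adjusted p = 0.405 unpaired, 0.0025 paired). Runx1 went the other way and was called higher in the paired fit (0.17, 0.628 unpaired, 0.0245 paired). Cbfb was not called (0.02, 0.733 paired), and Runx3 lay under the filter. These genes were named after their values were seen. Eomes, also named after its values were seen, had the highest log2 change of the list (1.37, limma adjusted p = 0.657 unpaired, 0.00216 paired). It had 250, 100, 73 and 9 scaled reads in Cre, against 197, 22, 22 and 3 in GFP, so its groups overlapped.

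Markers of the blood cells that usually make these proteases had few rows in the table, and the others were not analysed here. Of 14 T and NK cell markers, 3 had a row, and they summed to 35 to 69 scaled reads in Cre and 18 to 68 in GFP. The kinase Lck, the only one tested, had a log2 change of 0.22 (limma adjusted p = 0.840 unpaired, 0.462 paired). Of 12 mast cell and basophil markers, 3 had a row and summed to 373 to 569 scaled reads in Cre and 341 to 549 in GFP. Nearly all of that sum was Il3ra, a cytokine receptor chain (log2 change 0.16, adjusted p = 0.719 unpaired, 0.266 paired). The others, named after their values were seen, were the tryptase gene Tpsab1, with 3 to 11 in Cre and 0 to 13 in GFP, and Cd200r3, with 1 to 8 in Cre and 1 to 6 in GFP. Both sums overlapped between the groups, and their part in the result was not tested.

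Markers of other cells moved in part with the groups, and their part in the values of the members was not tested. Of 14 leukocyte and myeloid markers, 9 had a row and summed to 1935 to 3340 scaled reads in Cre and 644 to 2174 in GFP. Of these, 3 were tested and 0 were called in the unpaired fit or by limma-voom. Before adjustment p was below 0.05 for 1 higher gene, and the paired fit called 2 of 3 higher (66.7%), beside 43.9% of all genes tested. Laptm5, a lysosomal protein of blood cells, had 1300, 1744, 2708 and 1359 in Cre, against 377, 566, 991 and 314 in GFP. Its log2 change was 1.74 (limma adjusted p = 0.0867 unpaired, 1.3e-06 paired), and that of Cd68 was 1.00 (0.535 unpaired, 0.000369 paired). The groups overlapped for Cd68. Cd53 had a log2 change of 0.09 with no call.

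Of 7 fibroblast markers, 5 had a row and 3 were tested. They summed to 10521 to 26819 in Cre and 13256 to 28938 in GFP. The paired fit called 2 of 3 (66.7%), 1 higher and 1 lower, beside 43.9% of all genes tested. The unpaired fit called 1 of 3, beside 1.08% of all genes tested. This was Ly6a, also called Sca-1, with 565, 409, 445 and 346 in Cre, against 144, 91, 64 and 60 in GFP (log2 change 2.35, limma adjusted p = 0.0164). That call was lost when Cre library 1, 2 or 3 or GFP library 3 was left out. Col3a1, which makes up most of the sum, was lower in the paired fit (-0.25, limma adjusted p = 0.762 unpaired, 0.00278 paired). The 4 endothelial markers with a row, of 5 listed, summed to 276 to 408 in Cre and 141 to 182 in GFP. Of 2 tested, 0 were called in the unpaired fit or by limma-voom, and p before adjustment was below 0.05 for 1, the receptor gene Tek (log2 change 1.46, limma adjusted p = 0.175 unpaired, 3.3e-05 paired).

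The 10 muscle stem cell markers gave 0 calls in the unpaired fit, at an unadjusted p below 0.05 and by limma-voom. The paired fit called 6 of 10 (60.0%), 3 higher and 3 lower, beside 43.9% of all genes tested. Their median log2 change was 0.02. Myod1, the E-box factor of the lineage, had a log2 change of 0.20 and Megf10 of 0.16, both called higher in the paired fit. Vcam1, an adhesion molecule of quiescent cells, had a log2 change of -0.30 and was called lower in it. Myf5, with the lowest log2 change of the list (-0.57, limma adjusted p = 0.694 unpaired, 0.000124 paired), was also called lower in the paired fit. So was Pax7 (-0.14, 0.0354 paired). These last genes were named here after their values were seen.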

How the data were processed

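Libraries were stranded total RNA, per the labels' protocols, 8 in all. Per the submitters' processing notes, the tools were featureCounts 1.5.3 (Subread), STAR 2.5.3a and DESeq, and the build mm10, that is GRCm38. Settings, annotation release and use of strand in counting were not given in the sources used here. Values in the deposited table were handled as a score: the authors' table holds whole numbers with library totals that are nearly equal and steps that mark scaled and rounded reads, with estimated multipliers of 0.741 to 1.20. Intervals from counting error alone were not used, and each SE comes from a limma fit, which uses the spread between libraries. Replicates differed beyond sampling noise (chi-square over its degrees of freedom at least 18.3).

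Because the values were not raw counts, log2(value + 1) was tested with limma 3.58.1 (R 4.3.3, intensity trend), which understates changes of low genes. Genes needed 1 CPM in 4 libraries (12910 kept, 8066 removed). P-values were two-sided and Benjamini-Hochberg adjusted over all genes tested, with a threshold of 0.05, and scripts were tested on simulated data. Groups and numbers came from the titles. The labels do not say that equal numbers share a mouse. The correlation of deviations from group means was 0.820 to 0.908 for libraries with equal numbers and -0.597 to 0.477 for the others, so the numbers were taken as pairs on the evidence of the values alone. P-values otherwise measure the spread between these libraries.

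The members and gene lists were chosen with earlier results of these data known. Named were the members, cluster genes with a row, Chd4, the next called fall after Gzmd, the nearest 2 tested genes on each side, Ripk3, called neighbours, up to 3 genes per list by smallest p, the most abundant marker, and the 5 genes most like each member. Identifiers matched GENCODE M21 for 99.8% of rows, with the same coordinates for 74.3%. Sequences came from RefSeq promoters on GRCm38.p6 and from GENCODE transcripts, and were aligned with Biopython 1.88. All 3 members matched. A planned comparison of proteins was not run. Tables were made with pandas 2.3.3, numpy 2.4.6 and scipy 1.17.1 under Python 3.11.15. Alternatives were other pseudocounts (0.1 and 5), filters (none and 5 CPM), scalings, limma-voom, the replicate block and leaving out each library.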

Additional observations from a re-analysis of the deposited data

Results flagged for a closer look

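Of 100 groups of 4 libraries examined, 7 held a library far from the other 3. The rate of about 1 in 20 by chance holds for independent values without ties. Here libraries with the same number deviated together, and the flags for Mcpt2, Mcpt4 and Gzmb rest on tied low values. The 7 flags therefore cannot be set against that rate. In Cre library 1, Mcpt2 stood at 8 with the next library at 0, Gzmb at 10 with the next at 1, and Stxbp2 at 1627 with the next at 1161. In Cre library 4, Vcam1 stood at 4528 with the next at 2921. In GFP library 1, Mcpt1 stood at 114 with the next at 25, and Mcpt2 at 3 with the next at 0. In GFP library 4, Mcpt4 stood at 0 with the others at 1. Of these, 5 concern cluster genes with few reads, and 5 concern library 1 of either group. None of the 3 members had a library that far from the rest of its group.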

How the results depend on the processing

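The log2 changes of the members kept their sign under every alternative run, which is description only, since they were chosen from these values. The replicate block and the filters could not alter these log2 changes, and that of Gzmd stayed at -2.35. For Gzmd and Gzme, whose groups did not overlap, leaving out a library could not reverse the sign. Leaving out single libraries or pairs gave -2.54 to -2.16 for Gzmd, -1.45 to -1.20 for Gzme and -0.72 to -0.44 for Mcpt8. Without pair 1, a setting chosen after seeing the data because it had the lowest shares, the log2 change was -2.23 for Gzmd, -1.21 for Gzme and -0.50 for Mcpt8. With the replicate block, calls over all genes were 2861 higher and 2804 lower, together 43.9% of genes tested. Beside that share it called 8 of 11 granule genes, 2 of 5 serpins, 10 of 17 transcription factors and 15 of 39 genes within 1 Mb. Among markers it called 2 of 3 for leukocytes, 6 of 10 for muscle stem cells, 2 of 3 for fibroblasts and 1 of 2 for endothelial cells. Pairing by number thus sets how many genes are called. With no filter and the replicate block, added after seeing the data, 1 other cluster gene (Mcpt1) was called. A filter of 5 CPM gave 58 higher genes.

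When single libraries were left out without the block, calls over all genes were 10 to 51 higher and 1 to 7 lower. When pairs were left out with the block, they were 2238 to 2648 higher and 2100 to 2379 lower. List calls with the block were 7 to 8 (granule), 2 (serpins), 7 to 10 (transcription factors) and 9 to 13 (genes within 1 Mb). Among marker lists they were 2 (leukocyte), 2 to 4 (muscle stem cell), 2 (fibroblast) and 1 (endothelial). Without the block they were 0 to 1 for granule genes and for fibroblast markers, and 0 for the others. Without GFP library 1, Stxbp2 was called in the unpaired fit. Signs reversed for genes near zero: Gzmm (-0.29 to 0.090), Serpinb6a (-0.12 to 0.23), Lck (-0.12 to 0.46), Cd53 (-0.45 to 0.58), Pdgfra (-0.092 to 0.16) and Pecam1 (-0.050 to 0.56); the cause was not tested. With filters, the other cluster genes gave no value. The effect of depth was not tested.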
